A study of Mus musculus with 9 samples.

Results

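Ccl17, Ccl22 and Ccl24 encode chemokines that macrophages are known to secrete in response to IL-4. They were measured here as 3 of 17810 UniGene clusters on Affymetrix arrays of cultured mouse bone marrow-derived macrophages. The deposited rows carry UniGene cluster numbers and no symbols. The list that defined these members pairs symbols with numbers, so that the Ccl17 values are cluster Mm.41988's, the Ccl22 values Mm.12895's and the Ccl24 values Mm.31505's. That pairing could not be checked here, since the RefSeq gene table used (GRCm38.p6) named 0 of the clusters. Each of the 3 clusters had 1 probe set, and all of them were found and tested. For the same reason the macrophage identity of the cells was not checked against markers, and the lists of IL-4 response genes, receptors and markers of other cell types were not run.

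Marrow from C57BL/6 mice was cultured with 10% serum and 30 ng/ml of M-CSF, the macrophage growth factor. On day 4 the medium was changed, and RNA was taken 3 days later. In the dexa+IL4 group the new medium held IL-4 at 10 ng/ml and the synthetic glucocorticoid dexamethasone at 5e-07 M. In the cmB16F1 group it was medium in which B16F1 mouse melanoma cells had been grown, with neither agent. The third group received conditioned medium with dexamethasone and IL-4 and is called the combination. Each group had 3 arrays, 9 in all, and no array of unstimulated cells was used here. The sources used here do not give the age or number of the mice. The labels do not say whether the arrays of a group came from separate cultures or animals, so the p-values measure only the spread between these samples, which may be technical.

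IL-4 binds its receptor and activates the transcription factor STAT6, which is known to switch on chemokine genes in macrophages. Ccl17 (TARC) and Ccl22 (MDC) are the ligands of the receptor CCR4 and draw Th2 and regulatory T cells. Ccl24 (eotaxin-2) is a ligand of the receptor CCR3 and draws eosinophils. Dexamethasone acts through the glucocorticoid receptor, which is known to repress many inflammatory chemokine and cytokine genes.

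In the RefSeq annotation of GRCm38.p6, Ccl22 and Ccl17 lie on chromosome 8 with 1 protein-coding gene, Cx3cl1, between them, and Ccl24 lies on chromosome 5. The RefSeq promoter table held 300-base windows, from 250 bases before to 50 after the gene start, for 2 of the 3 genes. These chromosomal neighbours, as described below, differed in opposite directions in the comparisons with cmB16F1. The windows are printed because the motif search was set for every member that had one. Both are on the plus strand, at chr8:94810203-94810502 for Ccl17 and chr8:94745434-94745733 for Ccl22. Capitals mark matches to STAT-type motifs.
Ccl17: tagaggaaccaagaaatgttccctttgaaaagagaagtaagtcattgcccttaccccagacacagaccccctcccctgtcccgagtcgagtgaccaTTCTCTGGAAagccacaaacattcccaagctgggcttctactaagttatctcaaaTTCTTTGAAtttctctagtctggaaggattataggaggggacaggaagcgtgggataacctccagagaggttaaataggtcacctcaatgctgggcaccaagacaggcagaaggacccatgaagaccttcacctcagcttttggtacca
Ccl22: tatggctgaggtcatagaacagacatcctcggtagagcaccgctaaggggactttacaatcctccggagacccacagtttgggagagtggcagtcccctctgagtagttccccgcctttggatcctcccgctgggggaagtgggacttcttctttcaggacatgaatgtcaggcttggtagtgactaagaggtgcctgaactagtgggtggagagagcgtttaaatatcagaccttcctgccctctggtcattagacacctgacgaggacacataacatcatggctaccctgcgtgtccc
The motifs searched were TTC and GAA with any 4 bases between them, the spacing that STAT6 prefers, TTCNNNGAA, the general STAT motif, and ACANNNTGT, the core of glucocorticoid receptor sites. Each reads the same on both strands. The Ccl17 window held 1 match to the first, TTCTCTGGAA, which began 154 bases before the gene start, and 1 to the second, TTCTTTGAA, which began 99 bases before it. The 2 matches do not overlap. The Ccl22 window held no match to any of the 3 motifs, and neither window held ACANNNTGT. Of all 32851 windows in the table, 6.95% held the first motif, 8.3% the second and 6.85% the third. A match describes letters in this window and is not evidence that a factor binds there. Whether these matches bear on the directions of change was not tested.

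Ccl17 and Ccl22 were read at low levels, and Ccl24 above the median of every array. The deposited values were read as log2, inferred from their range, and were alike in distribution between arrays. As a reference for the low end, the 27 control sets for bacterial poly-A RNA ran from 6.09 to 7.00 over all arrays. The medians of the arrays ran from 7.19 to 7.25. The mean of Ccl17 over the 9 arrays was 7.11, above that of 45.3% of clusters, and the mean of Ccl22 was 7.07, above that of 43.1%. The mean of Ccl24 was 7.79, above that of 66.9% of clusters. Ccl24 lay above the highest bacterial control of the same array on 9 of 9 arrays, Ccl17 on 7 and Ccl22 on 6. Changes of Ccl17 and Ccl22 may therefore be compressed. Probe sets differ in their response, so the levels do not rank the genes against each other.

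The first comparison asked whether the melanoma medium raised or lowered each chemokine on top of dexamethasone and IL-4. Ccl24 rose 1.47-fold with the medium. The measured changes of Ccl17 and Ccl22, -0.058 and 0.025 on the log2 scale, did not pass the test. In this comparison 17.9% of all clusters passed the test, 8.88% with a higher level in the combination, against 1 of the 3 chemokines, which was higher. The count over all clusters, 3184, was 2044 without dexa+IL4 replicate 1 and 2096 without its replicate 3.

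Ccl24 was at 7.51, 7.65 and 7.61 on the dexa+IL4 arrays of replicates 1, 2 and 3, and at 8.20, 8.25 and 7.97 on the combination arrays. All combination arrays lay above all dexa+IL4 arrays, with replicate 3 the lowest of the combination. The groups did not overlap in 36.1% of all clusters. The means were 8.14 ± 0.15 in the combination and 7.59 ± 0.075 in dexa+IL4 (SD, n = 3). The log2 fold change was 0.55 (SE 0.0740, 95% confidence interval from 0.39 to 0.72, limma with Benjamini-Hochberg adjusted p = 0.000804). That change was larger in size than those of 95.9% of clusters.

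Ccl17, the CCR4 ligand also known as TARC, was at 7.23, 7.30 and 7.23 in dexa+IL4 and at 7.19, 7.07 and 7.32 in the combination. The combination arrays spread around the dexa+IL4 arrays, and the groups overlapped. The change was -0.058 (limma adjusted p = 0.635). Its 95% confidence interval, -0.21 to 0.09, spans 0.865-fold to 1.07-fold. Without combination replicate 2, the lowest of these arrays, the change was 0.005 (limma adjusted p = 0.975), and without replicate 3, the highest, it was -0.12 (limma adjusted p = 0.244).

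Ccl22, the other CCR4 ligand, was at 6.93, 6.98 and 6.96 in dexa+IL4 and at 6.91, 7.07 and 6.97 in the combination. The groups overlapped. Ccl22 lay below the highest bacterial control of its array on 2 of the 3 dexa+IL4 arrays and 1 of the 3 combination arrays, and no fold is given. The change was 0.025 (95% confidence interval -0.10 to 0.15, limma adjusted p = 0.815). Neither of these results shows that the medium left Ccl17 or Ccl22 alone. Ccl22 was read at the level of the controls, where a true change could go unseen. Ccl17 lay 0.17 to 0.38 above the highest control of each of these arrays, which is still close. Its SD was 0.13 in the combination and 0.038 in dexa+IL4, and this spread also limits what could be seen.

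**Figure D1:**
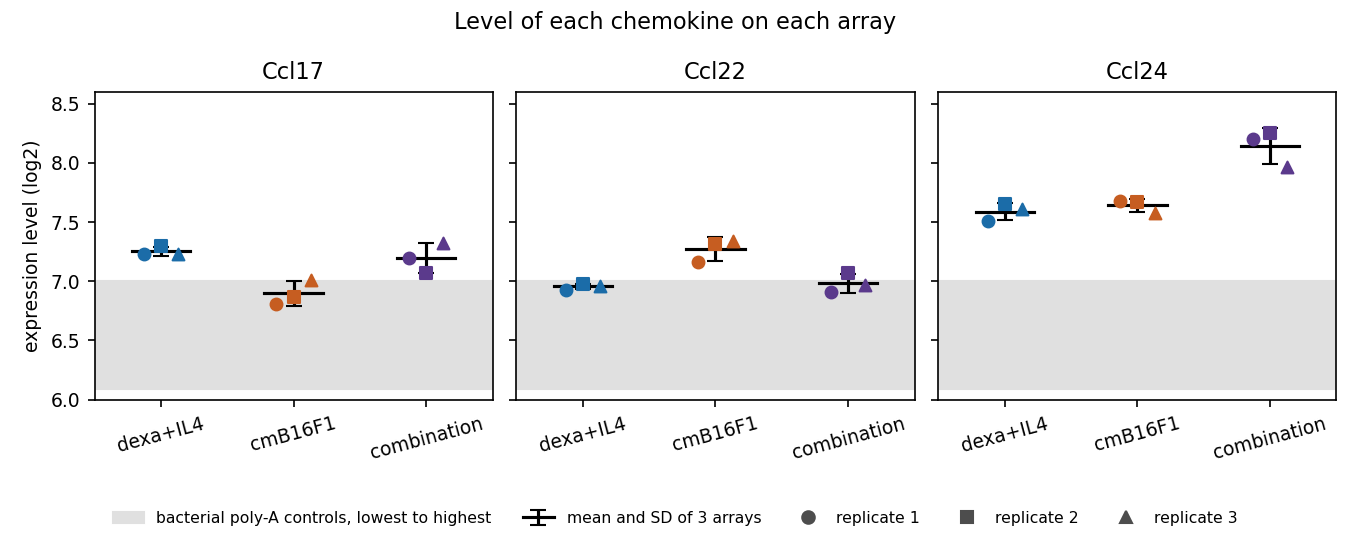
Level of Ccl17, Ccl22 and Ccl24 (log2, vertical axis) on each of the 9 arrays by group, with the mean and SD of the 3 arrays in black, a symbol for each replicate number, and the bacterial poly-A controls as a grey band from 6.09 to 7.00. The Ccl24 combination arrays, from 7.97 to 8.25, lie above all 6 others, the cmB16F1 arrays are lowest for Ccl17 and highest for Ccl22, and heights are not comparable between panels.

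The arrays that were higher in Ccl24 also differed in a technical measure. The mean of the 18 hybridization control sets, which report spiked-in material and not the cells, was 10.31 to 10.55 on the combination arrays, 10.03 to 10.22 on the dexa+IL4 arrays and 10.02 to 10.28 on the cmB16F1 arrays. Scaling each array to these controls shifted the median change of all clusters to -0.26. With that scaling the Ccl24 change was 0.30 (limma adjusted p = 0.0586). That is 0.55 above the median of all clusters, as before scaling, which holds by construction because the scaling shifts all changes alike. The Ccl17 change became -0.31 (limma adjusted p = 0.0372) and passed the test, at -0.055 relative to that median. The Ccl24 call held under the other 17 of 18 alternatives, with changes from 0.50 to 0.64 when 1 array was left out. Over all 18, its limma adjusted p ran from 0.00015 to 0.0586. The 18 are not independent checks, since several leave the measured change as it was and alter only the spread or the adjustment. The difference between the 3' and 5' sets of beta-actin, a sign of RNA integrity, overlapped between the groups. It was 0.95 to 1.39 in the combination, 0.92 to 1.12 in dexa+IL4 and 0.73 to 1.13 in cmB16F1. For Gapdh it was 0.24 to 0.59, 0.26 to 0.40 and 0.19 to 0.57, in the same order. Combination replicate 2, the array with the highest Ccl24 value, also had the highest value of each of these technical measures. Without that array the Ccl24 change was 0.50 (limma adjusted p = 0.0038). Whether these measures bear on the Ccl24 change was not tested.

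The second comparison took conditioned medium as the base and asked about dexamethasone with IL-4 on top of it. Ccl24 rose 1.41-fold and Ccl17 1.17-fold, while Ccl22 fell and was 1.21-fold higher in cmB16F1. The folds of Ccl17 and Ccl22 were estimated with values below the highest bacterial control of the array raised to it. This was done because the lower group was partly at the level of these controls. These folds are not lower limits of the change, and the confidence intervals given below reach smaller changes. All 3 chemokines passed the test and had groups that did not overlap, against 14.1% of all clusters that passed and 28.5% that did not overlap.

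Ccl24 was at 7.68, 7.67 and 7.57 in cmB16F1, for replicates 1 to 3, a mean of 7.64 ± 0.058 (SD, n = 3). All combination arrays lay above these. The change was 0.50 (SE 0.0740, 95% confidence interval from 0.33 to 0.66, limma adjusted p = 0.00131). With scaling to the hybridization controls it was 0.29 (limma adjusted p = 0.131), and 0.49 above the median of all clusters, which that scaling shifted to -0.20. The distance from the median is again unchanged by construction. The call held under the other 17 alternatives, and adjusted p ran from 0.000176 to 0.131 over all 18.

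Ccl17 was at 6.81, 6.87 and 7.01 in cmB16F1. On 2 of these arrays it lay below the highest bacterial control of the array. The mean was 6.90 ± 0.11 in cmB16F1 and 7.19 ± 0.13 in the combination (SD, n = 3). The change was 0.30 (SE 0.0682, 95% confidence interval from 0.15 to 0.45, limma adjusted p = 0.0151). The estimate of 1.17-fold was taken with each cmB16F1 value raised to its array's highest bacterial control where it lay below. The other such estimates were taken likewise. The call was lost without cmB16F1 replicate 1 (change 0.25, limma adjusted p = 0.0545) and without its replicate 2 (0.28 and 0.0544). It was also lost with scaling to the hybridization controls (0.09, limma adjusted p = 0.529, the highest of 18 alternatives from 0.00711 upward).

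Ccl22 ran the other way. It was at 7.16, 7.32 and 7.34 in cmB16F1, above all combination arrays, with means of 7.27 ± 0.099 and 6.98 ± 0.080 (SD, n = 3). The change was -0.29 (SE 0.0548, 95% confidence interval from -0.41 to -0.17, limma adjusted p = 0.00525). In the combination, 1 of the 3 arrays lay below its highest bacterial control. This call held under all 18 alternatives, with adjusted p from 0.00068 to 0.0241.

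**Figure D2:**
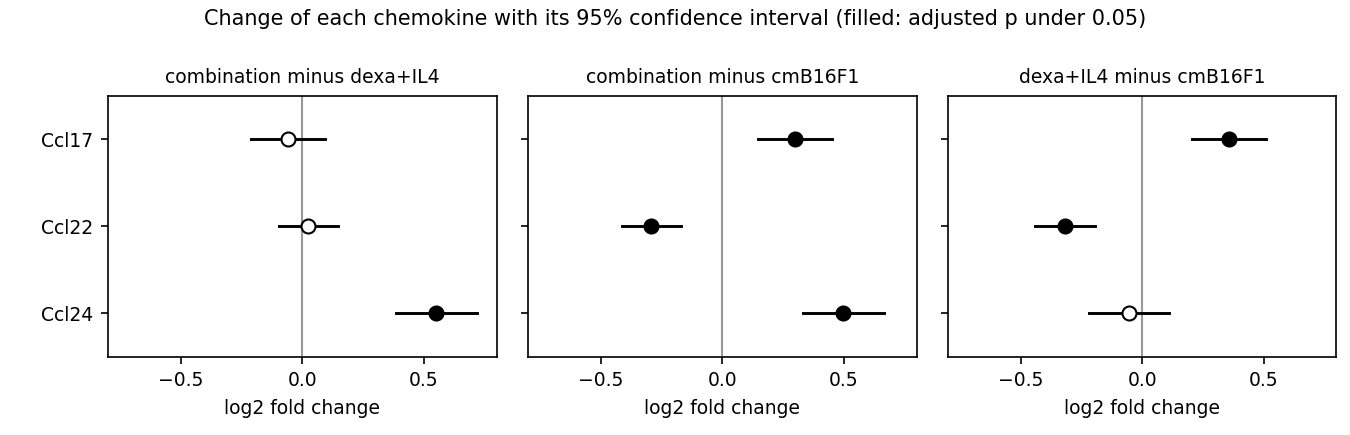
Log2 fold change (horizontal axis) of each chemokine in the 3 comparisons, as limma estimates with 95% confidence intervals, where filled points have an adjusted p under 0.05. Ccl24 is above 0 in both comparisons of the combination, which share the combination arrays, and Ccl17 and Ccl22 lie on opposite sides of 0 in both comparisons with cmB16F1, which share the cmB16F1 arrays.

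The third comparison set the single arms side by side. They differ in every agent, so it singles out none. Ccl17 was higher in dexa+IL4 and Ccl22 higher in cmB16F1, each by 1.22-fold when estimated with values raised to the bacterial controls as above. The confidence intervals of both changes again reach smaller folds. Ccl24, at 7.59 ± 0.075 and 7.64 ± 0.058 (SD, n = 3), did not pass the test. So 2 of 3 chemokines passed, against 25% of all clusters, and the same 2 had groups that did not overlap, against 44.3%.

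The Ccl17 change was 0.36 (SE 0.0682, 95% confidence interval from 0.20 to 0.51, limma adjusted p = 0.00371). The call held under all 18 alternatives, with adjusted p from 0.00081 to 0.0187. The Ccl22 change was -0.32 (SE 0.0548, 95% confidence interval from -0.44 to -0.19, limma adjusted p = 0.00205). In dexa+IL4, 2 of the 3 Ccl22 arrays lay below their highest bacterial control. It missed the threshold with scaling to the hybridization controls (change -0.27, limma adjusted p = 0.176), with adjusted p from 0.000316 upward over the 18 alternatives. The Ccl24 change was -0.053 (95% confidence interval -0.22 to 0.11, or 0.860-fold to 1.08-fold, limma adjusted p = 0.658).

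By the calls of the main fit, each chemokine had its own pattern over the groups. That reading is not a test that the chemokines differ, and scaling to the hybridization controls changed several of the calls. Ccl24 was highest in the combination, and its single arms did not differ beyond their spread. Ccl17 was lowest in cmB16F1, and dexa+IL4 and the combination did not differ beyond their spread. Ccl22 was highest in cmB16F1, with the other groups again not told apart. Counting the member itself, the pattern of calls of Ccl24 was found in 251 clusters (1.41%), that of Ccl17 in 461 (2.59%) and that of Ccl22 in 631 (3.54%). These are bulk samples, in which a change in the number of cells that express a gene and a change in RNA per cell cannot be told apart.

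**Figure D3:**
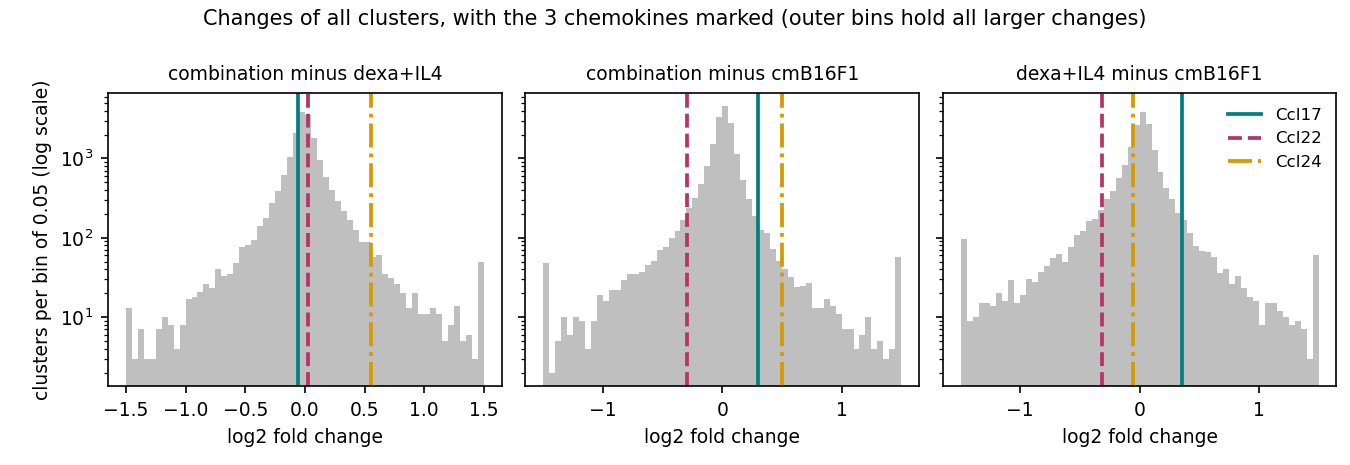
Log2 fold changes of all 17810 clusters (horizontal axis, bins of 0.05) in the 3 comparisons, with the number of clusters per bin on a log axis and a line for each chemokine. Ccl24, at 0.55, stands in the right flank of the first panel, while Ccl17 at -0.058 and Ccl22 at 0.025 fall near the centre.

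The responses of the chemokines were also set against each other within each array. Between dexa+IL4 and the combination, the change of Ccl24 exceeded that of Ccl17 by 0.61 and that of Ccl22 by 0.53 on the log2 scale, and in both pairs the array differences of the groups did not overlap (exact two-sided permutation p = 0.1 each). Between cmB16F1 and the combination, the change of Ccl17 exceeded that of Ccl22 by 0.59, also without overlap (exact permutation p = 0.1). In the same comparison Ccl17 and Ccl24 differed by 0.20 in their change, with overlap (exact permutation p = 0.4). That value was 0.082 without combination replicate 2, 0.11 without cmB16F1 replicate 3 and 0.35 without combination replicate 3. The change of Ccl24 exceeded that of Ccl22 by 0.79, without overlap (exact permutation p = 0.1). The share of other pairs of clusters without such overlap was not computed, and these differences rest on the same arrays as the changes above. The permutation tests reassigned arrays without regard to replicate numbers. The smallest p that 3 arrays against 3 then allow is 0.1, so none of the 9 such tests could pass, and their adjusted p was 0.129 or higher.

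To place these profiles among the other clusters, each profile was centred on its mean over the 9 arrays and compared by the root mean square difference on the log2 scale. The chemokines were 0.30 to 0.34 apart from each other. The nearest cluster to Ccl24 was Mm.29473, at a difference of 0.0641, with means of 10.07 in dexa+IL4, 10.06 in cmB16F1 and 10.50 in the combination. The nearest to Ccl17 was Mm.89646, at 0.0463, and the nearest to Ccl22 was Mm.27252, at 0.0490. Within a difference of 0.1 lay 11 clusters for Ccl24, 237 for Ccl17 and 381 for Ccl22. A profile that varies little also lies close to flat ones, and the span of the group means was 0.55 for Ccl24, 0.36 for Ccl17 and 0.32 for Ccl22.

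**Figure D4:**
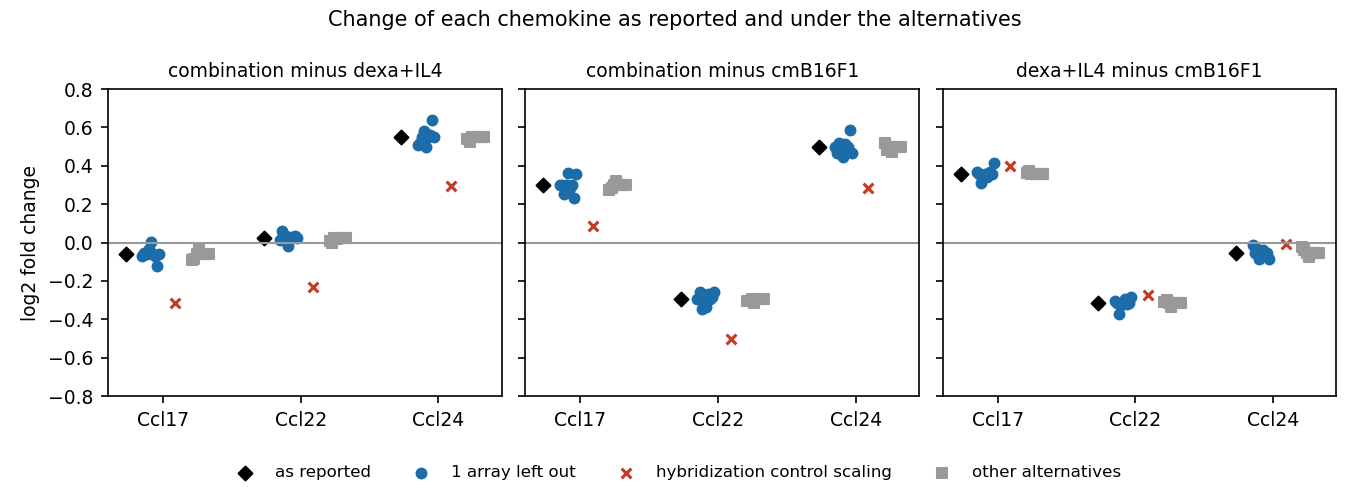
Log2 fold change (vertical axis) of each chemokine in the 3 comparisons as reported (diamonds), with 1 array left out (circles), with scaling to the hybridization controls (crosses) and under the other alternatives (squares). Ccl24 stays between 0.30 and 0.64 in the first panel, and the crosses lie lowest in the first 2 panels.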

How the data were processed

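Biotinylated cRNA from total RNA was hybridised to 1 Affymetrix array per sample, per the labels' protocols. The authors deposited log2 values per probe set that were alike in distribution between arrays. No header names the scale, and log2 was inferred from the range, 5.86 to 14.2. The sources used here do not give the background correction, normalization or chip definition. Of 17931 probe sets, 17867 carried a cluster number. For the 57 clusters with a plus and a minus set the one with the higher mean was used.

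limma 3.58.1 in R 4.3.3 (lmFit, eBayes with a mean-variance trend) was fitted to all 9 arrays with group as the only term, with Benjamini-Hochberg adjustment over 17829 features (17810 clusters and 19 mouse control sets), with a threshold of 0.05. No filter on dim sets was applied. Genes whose profiles are described are the 3 members and the 1 cluster most like each. Others are named only as background, chromosomal neighbour or array control. The number of arrays limits the precision. The SD over clusters of the difference between 2 arrays of a group was 0.0775 to 0.109 in dexa+IL4. It was 0.132 to 0.161 in cmB16F1 and 0.146 to 0.163 in the combination. The shared spread may therefore be too small for comparing the combination with cmB16F1. The procedure was tested on simulated data. The simulated arrays were independent and had the same spread in every group, unlike the real ones.

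Members, gene lists and tests were chosen with earlier results of these data known. Deviations of same-numbered arrays from their group means correlated at 0.617, 0.565 and 0.662 between the combination and cmB16F1, which was taken as pairing of these groups. With dexa+IL4 they did not all exceed 0.1. The alternatives tried were quantile normalization, median centring, scaling to the hybridization controls, a filter on dim sets, array weights, no trend, only the 2 groups compared, the replicate number as a block, the lower of plus and minus sets, and leaving out each array.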

Additional observations from a re-analysis of the deposited data

How the results depend on the processing

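Of the 9 changes, 18 alternatives each, those of Ccl22 with the medium, of Ccl22 between the combination and cmB16F1, and of Ccl17 and Ccl24 between the single arms kept their side of the threshold throughout. With scaling to the hybridization controls, Ccl24 missed the threshold in both comparisons of the combination (0.30 against dexa+IL4, 0.29 against cmB16F1), as did Ccl17 against cmB16F1 (0.087) and Ccl22 between the single arms (-0.27), while Ccl17 passed against dexa+IL4 (-0.31). This scaling shifts all changes of a comparison by the same amount, so the members' order is unchanged by construction. With it, 7104 clusters were called against dexa+IL4 in place of 3184, and 1893 between the single arms in place of 4454. Of the clusters called against dexa+IL4, those higher in the combination made up 49.7% as reported, 38.1% with median centring and 5.34% with that scaling, and against cmB16F1 46.4% and 11.7%.

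Leaving out 1 array gave changes of 0.23 to 0.36 for Ccl17 against cmB16F1, where cmB16F1 replicates 1 and 2 each decided the call. The count of clusters against dexa+IL4 ran from 2044, without dexa+IL4 replicate 1, to 3356, and was 2096 without its replicate 3. The sign of the changes of Ccl17 and Ccl22 with the medium, which were not called, turned under 1 and 3 alternatives. With the replicate number as a block over all 9 arrays, no call of a member changed. In the comparison taken as paired, the adjusted p (limma) was 0.00824 for Ccl17 (change 0.30), 0.00138 for Ccl22 (-0.29) and 0.000735 for Ccl24 (0.50). That block also paired dexa+IL4, whose correlations did not all exceed 0.1. No paired fit of the combination and cmB16F1 alone was run, and the main values of that comparison are from the unpaired fit. An unpaired fit of only these 2 groups called 1852 clusters in place of 2516. Its limma adjusted p was 0.0458 for Ccl17, 0.0232 for Ccl22 and 0.00661 for Ccl24. The nearness of Ccl17 and Ccl22 to the bacterial controls limits what can be seen of them.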
